A study of Mus musculus with 14 samples.

Results

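The voltage-gated calcium channel subunits described here are 10 genes, chosen by name among the 49315 genes of the count table as subunits of the L-type and T-type channels. They comprise the pore-forming subunits Cacna1c (Cav1.2) and Cacna1d (Cav1.3) of the L-type channels, Cacna1g (Cav3.1) and Cacna1h (Cav3.2) of the T-type channels, the beta subunits Cacnb1, Cacnb2 and Cacnb3, the alpha2delta subunits Cacna2d1 and Cacna2d2, and the gamma subunit Cacng6. All 10 had enough reads to be tested.

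The samples were left ventricles of male mice, with RNA selected by poly(A). HCN4F mice carry a germline knock-in in which phenylalanine replaces a tyrosine of the pacemaker channel HCN4 (in exon 4 of Hcn4), a change that increases channel activity and is present in all cells. WT mice carry the unchanged gene. Mice of both genotypes had Sham surgery or transverse aortic constriction (TAC), which narrows the aorta over a 27 G needle and loads the left ventricle with pressure, at 10 to 12 weeks of age, and hearts were taken 5 weeks later. The groups held 4 WT-Sham, 4 HCN4F-Sham, 4 HCN4F-TAC and 2 WT-TAC libraries (replicates 2 and 3). A count per gene does not show a single amino acid change, so the genotypes rest on the labels.

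In the ventricular myocyte, depolarization opens L-type channels in the T-tubules, and the calcium that enters triggers release of calcium from the sarcoplasmic reticulum through the ryanodine receptor. The pore is formed by an alpha1 subunit. A cytosolic beta subunit binds its intracellular linker and supports surface expression and gating, an extracellular alpha2delta subunit raises the number of channels at the membrane, and gamma subunits are further transmembrane partners that modulate gating. T-type channels open at more negative potentials, serve pacemaking and conduction in the adult heart, and are known for their return in hypertrophied ventricle.

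Total counts ranged from 22309914 to 35210939 per library, with a median of 27676181.5. The summed level of 8 ventricular cardiomyocyte markers was 54220 to 74810 CPM (reads scaled to a common library size), whereas the sum of 5 atrial markers was 3.46 to 7.61 CPM in 10 of the libraries and in HCN4F-TAC reached 9.50, 55.3, 6.32 and 18.4 CPM in replicates 1 to 4. HCN4F-TAC replicate 2, the library with 55.3 CPM, therefore stood apart, with 9.91 CPM of the atrial light chain Myl7, against 0 to 0.694 CPM in every other library. Myl4 (17.4 CPM), Sln (3.79 CPM) and Dkk3 (24.2 CPM) were also highest in it, but Bmp10 was at 0 CPM. In HCN4F-TAC replicates 1, 3 and 4 most of the atrial sum was Dkk3, at 7.55, 4.84 and 13.4 CPM. Test results below that turn on HCN4F-TAC replicate 2 are given with and without it. HCN4F-Sham replicate 2 was the shallowest library and had the highest endothelial marker sum, 1028 CPM (527 to 865 CPM in the others).

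Of the 2 subunit genes that passed the test after TAC, Cacng6 and Cacnb1, the sequence upstream of the start sites is shown for Cacnb1, the member that rose, so that its letters can be read beside its values. The sequences come from RefSeq on GRCm38.p6, 5′ to 3′ on the minus strand, which the gene is on. RefSeq lists 2 starts for Cacnb1, and the windows shown are chr11:98022635-98022877 before the first start, without its last 7 bases, which GENCODE M21 places in a first exon, and chr11:98018373-98018622 before the second. Capitals mark matches, on either strand, to CANNTG (E-box), GGAATG (MCAT) or GGGCGG (GC box), which did not overlap one another here.
Cacnb1, first start: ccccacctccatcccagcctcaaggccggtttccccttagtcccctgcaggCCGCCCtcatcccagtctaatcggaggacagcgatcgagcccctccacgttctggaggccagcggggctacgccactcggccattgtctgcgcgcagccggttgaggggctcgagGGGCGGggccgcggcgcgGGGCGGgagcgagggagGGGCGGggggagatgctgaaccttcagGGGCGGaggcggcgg
Cacnb1, second start: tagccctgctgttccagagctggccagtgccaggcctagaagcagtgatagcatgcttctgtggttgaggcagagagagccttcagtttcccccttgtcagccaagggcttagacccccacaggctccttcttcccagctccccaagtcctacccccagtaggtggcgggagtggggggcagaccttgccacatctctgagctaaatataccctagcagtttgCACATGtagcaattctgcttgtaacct
The first window held 5 GC boxes and no E-box, and the second held 1 E-box, 27 bases upstream of the start, and no GC box. Of all 32851 promoter windows of 250 bases, 66.2% held an E-box and 32.7% a GC box. Matches to GGAATG (12.6% of all windows), GGAAAA (NFAT, 20.4%), GATAAG (letters read by the Gata factors, 6.55%), the MEF2 motif (2.92%) and the CArG motif (1.47%) were absent from both windows. A match is a run of letters and not a site. The start that RefSeq lists for Cacng6 falls inside the first exon of GENCODE M21, so the window before it is not shown.

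The level of each subunit was first compared per length, as RPKM (CPM per kilobase of exon), over all 14 libraries. Cacna1c, the pore of the cardiac L-type channel, was the highest with a mean of 12.3 RPKM (range 9.37 to 15.6). Cacna2d1, its main alpha2delta partner, followed with 10.2 RPKM (7.49 to 13.6), and Cacnb2, the main cardiac beta subunit, with 2.72 RPKM (1.91 to 3.70). The ranges of Cacna1c and Cacna2d1 overlapped across libraries, but within every library Cacna2d1 stayed below Cacna1c, at 71.0% to 95.8% of its RPKM. Cacna2d1 and Cacnb2 did not overlap. Below them came Cacna1g with 1.92 RPKM (1.20 to 2.84), Cacnb1 with 1.67 RPKM (1.09 to 3.34), Cacnb3 with 1.11 RPKM (0.941 to 1.41), Cacna1h with 1.06 RPKM (0.663 to 1.54) and Cacng6 with 0.797 RPKM (0.0412 to 3.37). Neighbours in this stretch of the order overlapped and cannot be ranked beyond their spread. Cacna2d2 (0.270 RPKM, range 0.126 to 0.454) and Cacna1d (0.118 RPKM, range 0.0700 to 0.167) had the lowest means over all libraries and overlapped each other. The place of Cacng6 depended on the group. Its mean was 0.973 RPKM in WT-Sham and 1.48 RPKM in HCN4F-Sham, above Cacna2d2 in both, but 0.177 RPKM in HCN4F-TAC, below the 0.260 RPKM of Cacna2d2 there. In WT-TAC the means were 0.324 RPKM for Cacng6 and 0.263 RPKM for Cacna2d2, with Cacng6 above Cacna2d2 in replicate 2 and below it in replicate 3. The order of the means over all libraries was the same when lengths of the longest transcript were used.

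**Figure D1:**
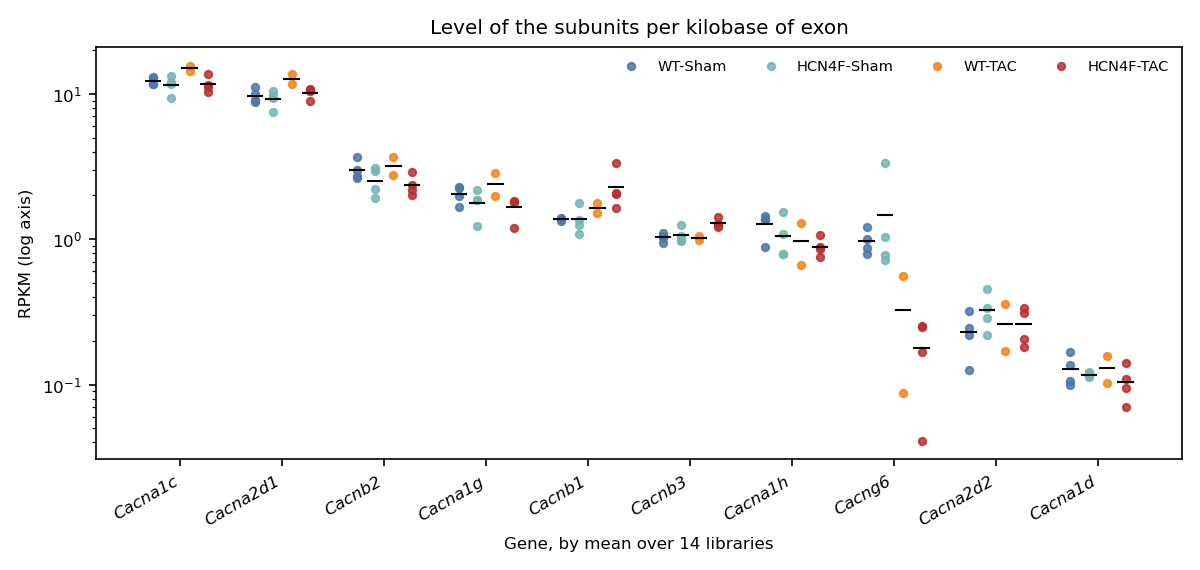
RPKM of the 10 subunit genes (log axis) in the 14 left ventricle libraries, ordered by their mean, with points for libraries coloured by group and short black lines for group means. Cacna1c and Cacna2d1 lay above 7 RPKM in every library, and Cacng6 spread most widely, from 0.0412 to 3.37 RPKM.

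Among the 4 pore-forming genes, Cacna1c made up 78.2% to 81.4% of their summed RPKM by group mean. The T-type genes Cacna1g and Cacna1h made up 11.6% to 13.0% and 5.19% to 8.04%, and Cacna1d, a channel best known from the sinoatrial node, 0.691% to 0.812%. The libraries of a group varied in these shares, with Cacna1h at 4.91% to 11.97% in HCN4F-Sham alone, and no test was run on them. The sum holds only the 4 pore genes named here, and leaves out Cacna1s, which was also measured.

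The first question was how the subunits responded to pressure overload. TAC was compared with Sham within each genotype with edgeR's quasi-likelihood test, and a gene passed where its p-value, adjusted over the 15292 genes tested, was under 0.05. In HCN4F hearts 2 of the 10 subunit genes passed after TAC, beside 13.6% of all genes tested. Cacnb1 was the 1 member that rose (7.2% of all genes rose) and Cacng6 the 1 that fell (6.41% fell). With the study's further requirement of a log2 fold change beyond 1 in either direction, Cacng6 alone was left, beside 2.75% of all genes. The groups did not overlap for 1 member, Cacng6, beside 15.1% of all genes. These shares are close to the background, so the family as a whole was not set apart by its number of passing genes. The median log2 fold change was -0.10 over the 10 members and -0.01 over all genes.

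Cacng6 (ENSMUSG00000078815, chr7:3424195-3435667, plus strand, GRCm38) encodes a gamma subunit found in striated muscle. It was measured at 2.00, 1.56, 2.41 and 1.73 CPM in WT-Sham replicates 1 to 4 and at 1.43, 1.55, 6.65 and 2.05 CPM in HCN4F-Sham replicates 1 to 4. In HCN4F-TAC it was 0.498, 0.329, 0.495 and 0.0814 CPM, and in WT-TAC replicates 2 and 3 it was 1.11 and 0.172 CPM. All 6 TAC libraries lay below all 8 Sham libraries. The depth behind these values was small, at 34 to 184 reads in the Sham libraries and 2 to 27 in the TAC libraries, and the 2 reads of HCN4F-TAC replicate 4 lay under the 3 reads that a count of 0 allows (0.122 CPM there). In HCN4F, the Cacng6 mean fell after TAC, from 2.92 ± 2.50 to 0.351 ± 0.196 CPM (SD, n = 4 each), and edgeR's quasi-likelihood test gave a log2 fold change of -3.04 (SE 0.65, 95% interval -4.44 to -1.64, adjusted p = 0.00837). HCN4F-Sham replicate 3, at 6.65 CPM, raised the Sham mean. Without it the log2 fold change was -2.25, still past the threshold, and without HCN4F-TAC replicate 2 it was -3.01 (edgeR adjusted p = 0.0319, the highest of the 17 alternative settings tried). In WT the log2 fold change of Cacng6 was -1.70 (SE 0.78, 95% interval -3.39 to -0.01), which did not pass (edgeR adjusted p = 0.225). The 2 WT-TAC libraries decided this value, since it was -3.45 without replicate 2 and -0.79 without replicate 3.

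Markers of skeletal muscle, which also makes Cacng6, gave no common shift. Of the 6, the muscle creatine kinase Ckm, which the heart expresses strongly, made up nearly all of the summed level and was 2200 to 2930 CPM in HCN4F-Sham and 2042 to 2184 CPM in HCN4F-TAC. The fast troponin Tnnt3 was 0.253 to 0.423 CPM in HCN4F-Sham and higher, at 0.456 to 1.12 CPM, in HCN4F-TAC, and Myh1, Myh2, Myh4 and Actn3 were at 0 to 0.325 CPM in all 14 libraries. The ventricular cardiomyocyte marker sum was 64150 to 68510 CPM in HCN4F-Sham and 54220 to 61080 CPM in HCN4F-TAC, with none of its 8 genes at 0. Its genes did not move together. Myh6, the most abundant of them, was 27890 to 30850 CPM in HCN4F-Sham and 19960 to 26210 CPM in HCN4F-TAC, and Myl2, Tnnt2 and Tnni3 also lay lower without overlap. Actc1 lay higher without overlap, at 7496 to 9681 CPM in HCN4F-Sham and 9741 to 11420 CPM in HCN4F-TAC, while Myl3, Pln and Ryr2 overlapped. The part of these shifts in the fall of Cacng6 was not tested. In bulk tissue, fewer cells of a type and less RNA per cell cannot be told apart.

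Cacnb1 (ENSMUSG00000020882, chr11:98001508-98023034, minus strand, GRCm38) encodes the beta1 subunit, the partner of the skeletal muscle channel that is also made in heart. It was steady in WT-Sham, at 6.36, 6.06, 6.19 and 6.21 CPM in replicates 1 to 4, and was 6.14, 5.66, 8.06 and 4.92 CPM in HCN4F-Sham. HCN4F-TAC replicates 1 to 4 had 9.25, 15.2, 7.45 and 9.40 CPM, and WT-TAC replicates 2 and 3 had 8.09 and 6.87 CPM. HCN4F-TAC overlapped HCN4F-Sham, because its replicate 3 lay below HCN4F-Sham replicate 3, but lay above every WT-Sham library. In HCN4F the mean rose to 10.3 ± 3.34 CPM, against 6.20 ± 1.34 CPM in Sham (SD, n = 4 each), a log2 fold change of 0.74 by edgeR's quasi-likelihood test (SE 0.19, 95% interval 0.34 to 1.14, adjusted p = 0.0155). Without HCN4F-TAC replicate 2 it was 0.49 and still passed (edgeR adjusted p = 0.0462). When only the 2 HCN4F groups were fitted it was 0.73 and no longer passed (edgeR adjusted p = 0.0630). In WT the log2 fold change was 0.27 (SE 0.23, edgeR adjusted p = 0.527), although the 2 WT-TAC libraries lay above the 4 WT-Sham libraries.

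Within HCN4F-TAC, marker sums of other cell types moved with Cacnb1. In HCN4F-TAC replicates 1 to 4 the sum of the 5 fibroblast markers was 685, 823, 529 and 783 CPM, against 449 to 567 CPM in HCN4F-Sham, and the sum of the 6 neuronal and Schwann cell markers was 21.8, 27.1, 17.4 and 23.5 CPM, against 15.0 to 22.9 CPM. Much of the shift in the fibroblast sum was that of the collagen gene Col1a1. It was at 130 to 206 CPM in HCN4F-Sham and at 351, 417, 216 and 383 CPM in HCN4F-TAC replicates 1 to 4. Replicate 2, with the highest Cacnb1 value, also had the highest fibroblast, neuronal and atrial sums of the 4 libraries and the lowest ventricular cardiomyocyte sum (54220 CPM). No fibroblast marker was at 0 in any library, 1 neuronal marker was at 0 in each HCN4F-TAC library, and 2, 1, 3 and 0 atrial markers were at 0 in its replicates 1 to 4. The HCN4F-Sham libraries did not share this pattern. Their replicate 2 had the highest fibroblast (567 CPM) and neuronal (22.9 CPM) sums of that group, with 5.66 CPM of Cacnb1. Their replicate 3 had the highest Cacnb1 value, 8.06 CPM, with the lowest neuronal sum (15.0 CPM) and a fibroblast sum of 460 CPM. The part of these cell types in the rise of Cacnb1 was not tested.

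**Figure D2:**
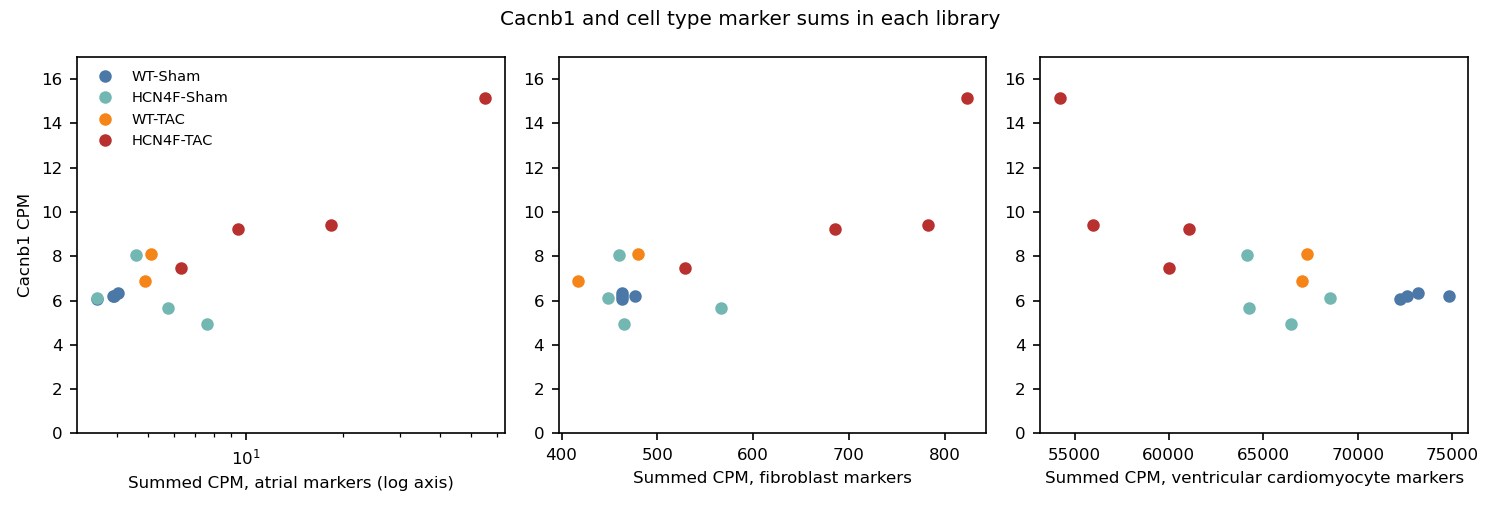
Cacnb1 in each library (CPM, vertical axis) against the summed CPM of atrial markers (log axis), fibroblast markers and ventricular cardiomyocyte markers, with 1 point per library coloured by group. HCN4F-TAC replicate 2 had the highest Cacnb1 value (15.2 CPM) together with the highest atrial (55.3 CPM) and fibroblast (823 CPM) sums and the lowest ventricular cardiomyocyte sum (54220 CPM).

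The other beta subunits did not pass in HCN4F. Cacnb2, which supports the cardiac L-type current, had 29.1, 25.3, 40.6 and 38.7 CPM in HCN4F-Sham replicates 1 to 4 and 26.5, 29.1, 38.3 and 31.0 CPM in HCN4F-TAC, with a log2 fold change of -0.10 (95% interval -0.45 to 0.25). Cacnb3, a beta subunit of brain and smooth muscle, had 3.92, 5.02, 3.94 and 4.23 CPM in HCN4F-Sham and 5.14, 5.66, 4.84 and 5.003 CPM in HCN4F-TAC, with a log2 fold change of 0.28 (95% interval 0.04 to 0.52, edgeR adjusted p = 0.116). A single Sham library, replicate 2, reached into the range of the TAC libraries for Cacnb3. Per length, Cacnb1 made up 25.5% of the summed RPKM of the 3 beta genes in WT-Sham, 27.5% in HCN4F-Sham, 28.1% in WT-TAC and 37.9% in HCN4F-TAC, where it ranged from 28.7% to 48.1%, the highest share being that of replicate 2. The share of Cacnb2 was 55.5%, 50.6%, 54.3% and 40.2% in the same order. As a ratio of RPKM, Cacnb1 stood at 102%, 152%, 56.9% and 88.4% of Cacnb2 in HCN4F-TAC replicates 1 to 4, against 37.0% to 65.4% in the 10 other libraries, so that 3 of the 4 libraries lay above all others. These shares and ratios were not tested, follow from the values above and depend on the lengths used. With lengths of the longest transcript, the HCN4F-TAC means were 3.04 RPKM for Cacnb1 and 6.21 RPKM for Cacnb2. In HCN4F-Sham they were 1.82 and 6.65 RPKM, so by this measure the Cacnb1 mean stayed below that of Cacnb2 in both groups.

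**Figure D3:**
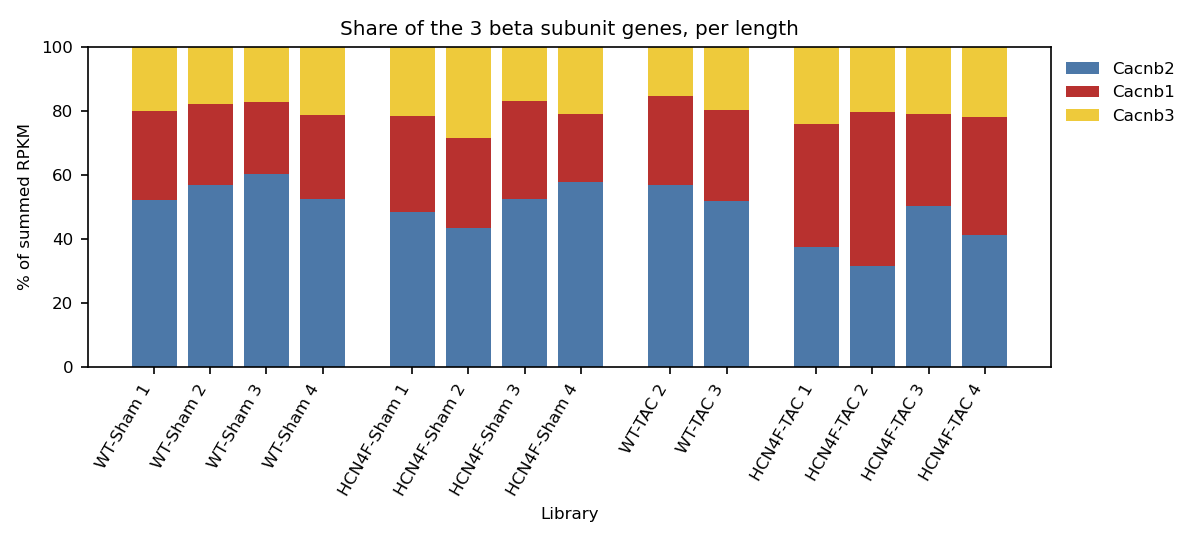
Share of Cacnb2, Cacnb1 and Cacnb3 in their summed RPKM (%, with lengths of merged exons) in each of the 14 libraries, as stacked bars ordered by group and labelled with the replicate number. The Cacnb1 share reached 48.1% in HCN4F-TAC replicate 2 and lay between 21.5% and 30.5% in the HCN4F-Sham libraries.

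The pore of the L-type channel did not pass in HCN4F. Cacna1c (ENSMUSG00000051331, chr6:118587240-119196418, minus strand) had 255, 199, 247 and 282 CPM in HCN4F-Sham replicates 1 to 4 and 243, 219, 289 and 237 CPM in HCN4F-TAC, and the log2 fold change of 0.01 had a 95% interval of -0.21 to 0.22. The 8 HCN4F libraries held 4351 to 9327 Cacna1c reads each. Cacna2d1, the alpha2delta partner, had 121, 93.0, 130 and 117 CPM in HCN4F-Sham and 131, 111, 132 and 133 CPM in HCN4F-TAC (log2 fold change 0.14, 95% interval -0.09 to 0.36). Its libraries overlapped between the groups. The T-type pore Cacna1g had 22.2, 18.9, 12.6 and 18.9 CPM in HCN4F-Sham and 18.7, 12.2, 18.4 and 18.4 CPM in HCN4F-TAC, and Cacna1h had 10.6, 15.1, 7.77 and 7.70 CPM and 7.34, 8.33, 8.62 and 10.5 CPM. For both T-type genes the groups overlapped widely. Cacna1d had 1.43, 1.51, 1.45 and 1.54 CPM in HCN4F-Sham and 1.20, 1.78, 0.883 and 1.38 CPM in HCN4F-TAC, and Cacna2d2 had 1.45, 1.65, 2.69 and 2.48 CPM in HCN4F-TAC, inside or below its Sham range. These 4 members also missed the threshold in HCN4F, with log2 fold changes of -0.17 for Cacna1d (95% interval -0.66 to 0.32), -0.10 for Cacna1g (-0.49 to 0.29), -0.23 for Cacna1h (-0.77 to 0.30) and -0.30 for Cacna2d2 (-0.95 to 0.35). The interval of Cacna2d2, with 35 to 79 reads in each HCN4F library, was the widest of these 4.

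In WT hearts 0 of the 10 members passed after TAC with edgeR's quasi-likelihood test, beside 4.54% of all genes, and 3 had an unadjusted p under 0.05, beside 22% of all genes. With 1 library left out that number was 1 or 2. Cacna1c had 248, 278, 271 and 246 CPM in WT-Sham replicates 1 to 4 and 331 and 304 CPM in WT-TAC replicates 2 and 3. Its log2 fold change was 0.28 (SE 0.12, 95% interval 0.02 to 0.54, edgeR adjusted p = 0.187). Cacna2d1 had 112, 124, 138 and 109 CPM in WT-Sham and 169 and 145 CPM in WT-TAC, with a log2 fold change of 0.38 (SE 0.13, 95% interval 0.11 to 0.65, edgeR adjusted p = 0.0915). For both genes each WT-TAC library lay above each WT-Sham library. In all, 4 members did not overlap between the WT groups (Cacna1c, Cacna2d1, Cacnb1 and Cacng6), beside 39.2% of all genes. The ventricular cardiomyocyte marker sum was 67040 to 67310 CPM in WT-TAC and 72240 to 74810 CPM in WT-Sham. Of its genes, Ryr2 lay higher in WT-TAC without overlap, and Myh6, Actc1 and Pln overlapped. The smooth muscle sum was 211 to 227 CPM and 279 to 388 CPM. The part of these markers in the WT values was not tested. When only the WT groups were fitted, edgeR passed Cacna1c (0.30, adjusted p = 0.0208) and Cacna2d1 (0.39, adjusted p = 0.0278), and DESeq2 passed both and Cacng6 (adjusted p = 0.00841, 0.00561 and 0.00431).

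The remaining WT values were not past the threshold. The T-type pores had 28.8 and 20.1 CPM of Cacna1g in WT-TAC replicates 2 and 3, against 22.7, 23.1, 20.2 and 16.99 CPM in WT-Sham, and 12.7 and 6.47 CPM of Cacna1h, against 8.65, 13.3, 13.5 and 14.1 CPM. Cacnb2 had 48.5 and 36.5 CPM against 34.9, 39.6, 48.9 and 36.1 CPM. WT-TAC replicate 2 was the higher of its pair for 9 of the 10 members, and replicate 3 was higher for Cacnb3 alone (4.24 against 3.99 CPM). Cacnb3 in WT (4.07, 3.77, 4.24 and 4.41 CPM in WT-Sham) differed by -0.0028 on the log2 scale (95% interval -0.30 to 0.29), Cacna1d (1.26, 1.34, 2.10 and 1.73 CPM in WT-Sham, 1.97 and 1.29 CPM in WT-TAC) by -0.0007 (-0.55 to 0.55) and Cacna2d2 (2.83 and 1.35 CPM in WT-TAC) by 0.17 (-0.63 to 0.98).

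**Figure D4:**
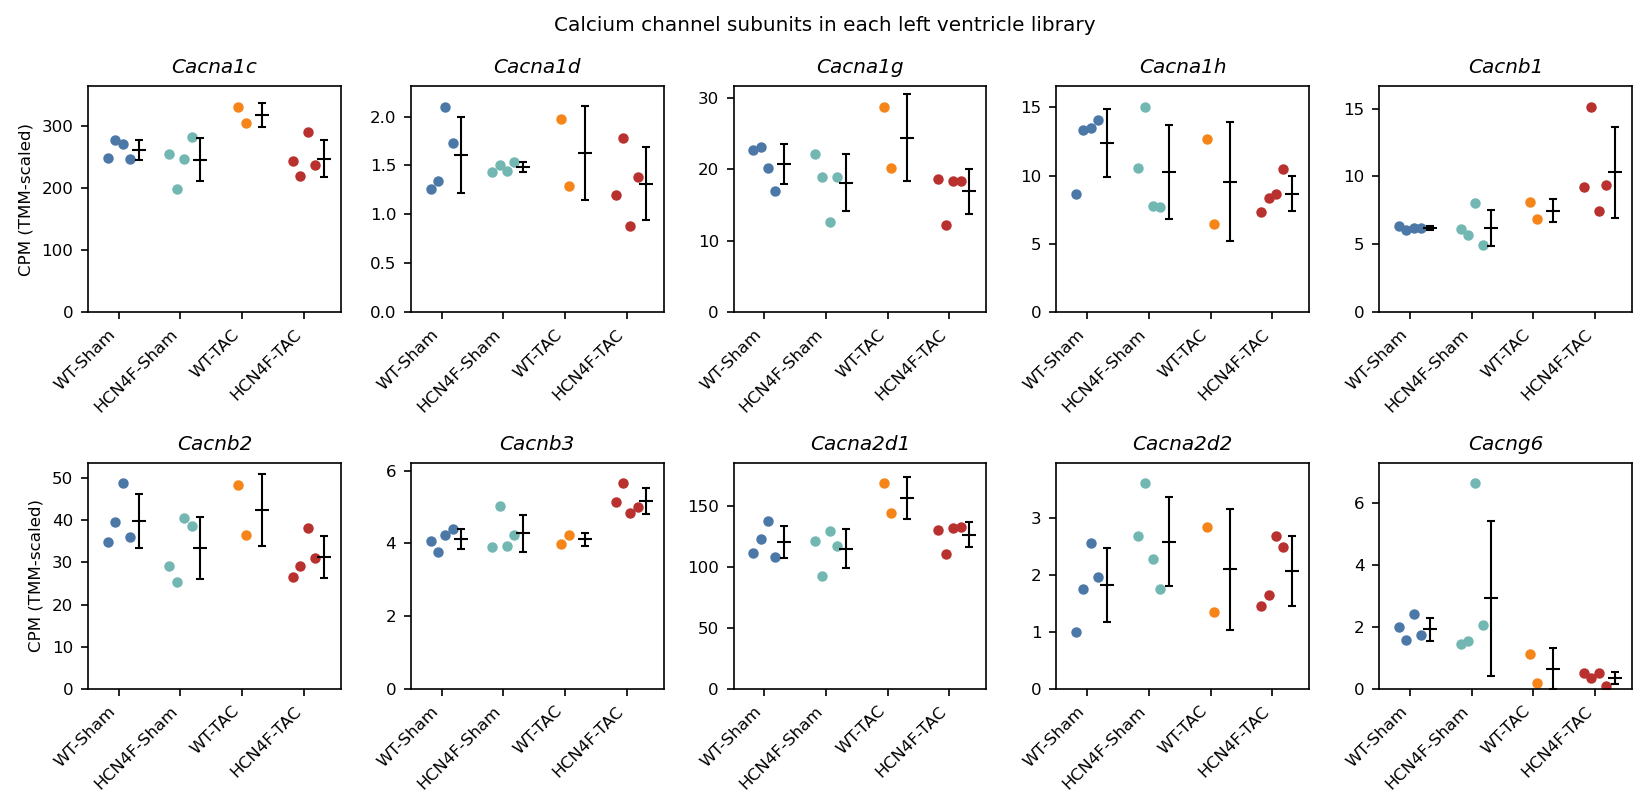
CPM of the 10 subunit genes in every library (points) by group, with black marks at the group mean and bars of 1 SD (n = 4, and n = 2 for WT-TAC), each panel on its own axis from 0. Cacng6 lay lower in all 6 TAC libraries than in all 8 Sham libraries, and HCN4F-TAC replicate 2 carried the highest Cacnb1 value, 15.2 CPM.

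The second question was whether the genotype changed the subunits. Between the Sham groups 0 of the 10 members passed with edgeR's quasi-likelihood test, beside 0.471% of all genes, and 0 had an unadjusted p under 0.05, beside 15.2% of all genes. DESeq2 on all groups also gave 0 such members. With edgeR the number was 1 without HCN4F-Sham replicate 2. No member's groups were apart, beside 8.56% of all genes. The smallest adjusted p was that of Cacna2d2 (edgeR adjusted p = 0.471), an alpha2delta subunit of brain and cardiac tissue, at 2.67, 3.61, 2.28 and 1.75 CPM in HCN4F-Sham replicates 1 to 4 and 0.998, 1.74, 2.56 and 1.96 CPM in WT-Sham. The best measured members had narrow intervals, from -0.30 to 0.13 for Cacna1c and from -0.29 to 0.16 for Cacna2d1. The highest Cacna2d2 and Cacna1h (15.1 CPM) and the lowest Cacna1c (199 CPM), Cacna2d1 (93.0 CPM) and Cacnb2 (25.3 CPM) of all 14 libraries were all found in HCN4F-Sham replicate 2, the shallowest library with the highest endothelial marker sum, and the part of that in the values was not tested.

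After TAC, 0 of the 10 members passed between HCN4F and WT, beside 0.111% of all genes, and 5 had an unadjusted p under 0.05 with edgeR's quasi-likelihood test, beside 12.5% of all genes. DESeq2 on all groups gave 4 such members. With edgeR the number was 0 without WT-TAC replicate 2, 1 without HCN4F-TAC replicate 2 and 6 without HCN4F-TAC replicate 3. The groups did not overlap for 4 members (Cacna1c, Cacna1g, Cacnb3 and Cacna2d1), beside 22.2% of all genes. In HCN4F-TAC, Cacna1c lay below its WT-TAC level with a log2 fold change of -0.36 (SE 0.12, 95% interval -0.62 to -0.10, edgeR adjusted p = 0.235), Cacna1g with -0.53 (-0.99 to -0.07, adjusted p = 0.335), Cacna2d1 with -0.31 (-0.58 to -0.04, adjusted p = 0.329) and Cacnb2 with -0.44 (-0.86 to -0.02, adjusted p = 0.380). Cacnb3 was higher with 0.33 (0.03 to 0.62, adjusted p = 0.346) in the same edgeR fit. Without WT-TAC replicate 2 the log2 fold changes of Cacna1g, Cacna2d1 and Cacnb2 were -0.25, -0.19 and -0.23. HCN4F-TAC replicate 2 was the lowest of its group for Cacna1g (12.2 CPM) and Cacna2d1 (111 CPM). Without that library the log2 fold change of Cacnb3 was 0.27. With each library left out in turn, Cacna1g ran from -0.77 to -0.25, Cacna2d1 from -0.42 to -0.19 and Cacnb2 from -0.63 to -0.23. These differences fail the adjustment, and they are set against 2 WT-TAC libraries, the same that stand in the comparison of WT-TAC with WT-Sham. Cell markers moved with these differences. The ventricular cardiomyocyte marker sum was 54220 to 61080 CPM in HCN4F-TAC and 67040 to 67310 CPM in WT-TAC, and the sum of the 5 fibroblast markers was 528.5 to 823.2 CPM and 417.5 to 479.4 CPM, with no gene of either list at 0. Neither sum overlapped between the groups, although Myl3, Tnnt2, Actc1 and Pln of the cardiomyocyte list did. In HCN4F-TAC, Col1a1 alone gave 216 to 417 CPM of the fibroblast sum. The part of these markers in the differences was not tested. The median log2 fold change over the 10 members was -0.30, and that over all genes was 0.0036.

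The response to TAC was compared between the genotypes by the genotype by surgery interaction. None of the 10 members passed, beside 0% of all genes, and none had an unadjusted p under 0.05, beside 9.27% of all genes with edgeR's quasi-likelihood test. The number with an unadjusted p under 0.05 was 2 without HCN4F-Sham replicate 2 or HCN4F-TAC replicate 3, and 1 without HCN4F-Sham replicate 3. The smallest adjusted p among the members was 0.622, for Cacna1c. Cacng6 had an interaction of -1.34 (95% interval -3.64 to 0.96) and Cacnb1 of 0.47 (-0.16 to 1.11), so a difference between the genotypes in the response of the 2 genes that passed in HCN4F was not shown. DESeq2 on all groups also left 0 members past the threshold.

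**Figure D5:**
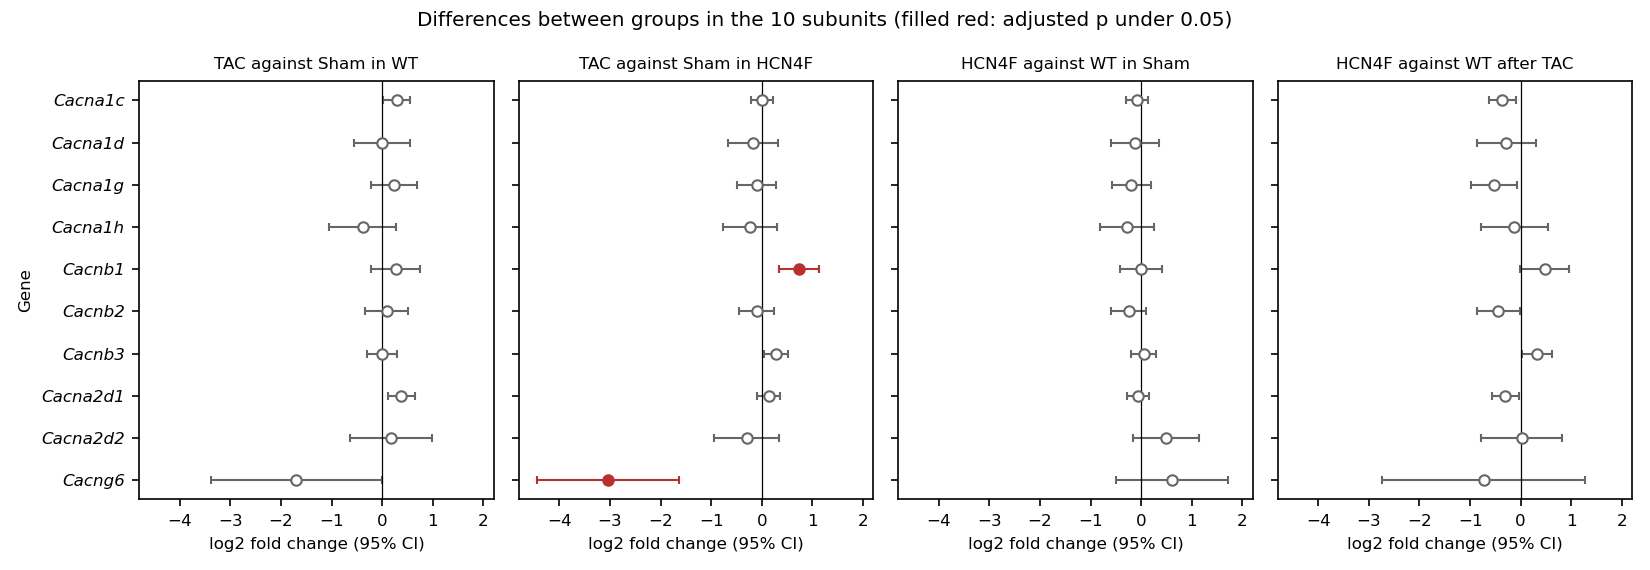
Log2 fold change of the 10 subunit genes with 95% intervals in 4 comparisons, from the edgeR fit on all 14 libraries, with filled red points for an adjusted p under 0.05. Cacng6 (-3.04) and Cacnb1 (0.74) are filled in TAC against Sham in HCN4F, and no point is filled in the other 3 panels.

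How the members varied with each other was described from their log2 CPM, after the group means had been subtracted, over the 14 libraries. Genes of 1 library share its depth and its cell makeup, and none of these correlations was tested. Cacna1h and Cacna2d2 were the most alike pair (Pearson r = 0.88), and Cacnb2 varied with Cacna2d1 (r = 0.76) and with Cacna1c (r = 0.74). Cacnb3 ran against Cacna2d1 (r = -0.78) and against Cacna1c (r = -0.77). Among the 15291 other genes compared, those most like Cacna1c were Pde4dip (r = 0.97), which encodes the phosphodiesterase-interacting protein myomegalin, Zfp758 (r = 0.95) and Nnt (r = 0.95), the mitochondrial nicotinamide nucleotide transhydrogenase. Those most like Cacng6 were the predicted gene Gm13509 (r = 0.93), the water channel Aqp4 (r = 0.92) and Phkg1 (r = 0.90), a catalytic subunit of phosphorylase kinase.

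The rest of the channel family and its regulators were read beside the members. Of 16 other channel genes 6 had enough reads for a test (Cacna1a, Cacna1b, Cacna1s, Cacnb4, Cacna2d3 and Cacng7), and 0 passed in any comparison with edgeR's quasi-likelihood test. Cacna1s, the skeletal muscle pore, was measured at 7.71 to 15.1 CPM, and Cacng7 at 5.99 to 10.1 CPM. Of 23 regulators, among them the calmodulins, RGK proteins, anchoring proteins and junctophilin, 21 were tested and 0 passed. The nearest to passing was Akap7, which anchors protein kinase A at the channel, with a log2 fold change of -0.28 after TAC in HCN4F (95% interval -0.48 to -0.08, edgeR adjusted p = 0.0541). It was named after its values had been seen. The median log2 fold changes after TAC in HCN4F were -0.12 over the 6 other channel genes and 0.01 over the 21 regulators.

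Where exons are shared with another gene, the origin of reads depends on whether strand was used in counting, which is not given in the sources used here. Cacnb1 shared 1.77% of its exon bases with Gm11629 on the opposite strand, and Cacng6 shared none. Among the other members 4 shared exon bases with other genes, from 0.839% to 4.67% per pair. The limits given for a count of 0 cover counting error only.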

How the data were processed

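Left ventricular poly(A) RNA was sequenced on an Illumina platform in the study. The authors deposited raw counts, whole reads per gene and library with no normalization; the submitters' processing notes name GRCm38. The aligner, counting program, annotation and strand use are not given in the sources used here. Groups and replicate numbers came from the labels. Of 16 samples in the study, 14 were used, and 2 further columns of counts, whose names mark them as WT after TAC but match no sample, were not used.

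Genes were kept with filterByExpr by group, which left 15292 of 49315. Counts were scaled with TMM in edgeR 4.0.16 (R 4.3.3), and all 4 groups were fitted together (10 residual degrees of freedom) by edgeR's robust quasi-likelihood method, with p-values adjusted after Benjamini and Hochberg. CPM carries no pseudocount, and log2 CPM used a prior count of 2. SEs and 95% intervals are those of the model. RPKM used merged GENCODE M21 exons, in which 99.3% of gene IDs were found. A count of 0 allows up to 3 reads, 0.0859 to 0.137 CPM per library. Replicates are separate samples in the labels and differed beyond counting noise. The members, gene lists and tests were chosen with earlier results of these data known. All members were named, with the genes of the other lists that passed (at most 6 per comparison) and, for Cacna1c and Cacng6, the 3 genes most alike over libraries. DESeq2 1.42.0, other scalings and filters, the replicate block and each library left out were the alternatives. Upstream sequences (250 bases, without bases that GENCODE M21 places in a UTR) and motif matches came from RefSeq, which held an entry for 8 of the 10 members. Figures were drawn with matplotlib 3.10.9.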

Additional observations from a re-analysis of the deposited data

Results flagged for a closer look

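In 4 of the 30 sets of 4 libraries examined (10 members in 3 groups), 1 library stood far from the others of its group, where chance gives about 1 in 20. Cacng6 was 6.65 CPM in HCN4F-Sham replicate 3 and 1.43 to 2.05 CPM in the other 3 libraries. Cacna1g was 12.2 CPM in HCN4F-TAC replicate 2 and 18.4 to 18.7 CPM in the others, and Cacna2d1 was 111 CPM in the same library and 131 to 133 CPM in the others. Cacna1h was 8.65 CPM in WT-Sham replicate 1 and 13.3 to 14.1 CPM in the others. The part of cell makeup or depth in these values was not tested.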

How the results depend on the processing

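Of the 10 members, 2 passed after TAC in HCN4F, 0 in WT and 0 in every other comparison. The count in HCN4F was 1 with the added fold threshold and 1 with edgeR on the compared groups, where Cacnb1 missed. The count in WT was 3 with DESeq2 on the compared groups, 2 with edgeR on the compared groups and 1 without a filter (Cacna2d1). No other alternative, and no library left out, changed a count. Cacng6 after TAC in HCN4F passed in all 17 alternatives (edgeR or DESeq2 adjusted p 0.000188 to 0.0319) and Cacnb1 in 16 of 17 (0.0022 to 0.0630). Fitted with edgeR on the compared groups, Cacna1c after TAC in HCN4F was -0.0010 on the log2 scale. Values near 0 changed direction in WT after TAC with DESeq2 on all groups, DESeq2 and edgeR on the compared groups, DESeq2 size factors, library totals and no filter, in this order at 0.0097, 0.0176, 0.0076, 0.0092, 0.0497 and 0.0217 for Cacna1d and 0.0093, 0.0128, 0.0132, 0.0080, 0.0443 and 0.0235 for Cacnb3. With library totals Cacnb1 between the Sham groups was 0.0066. Cacna2d2 between the TAC groups was -0.0085 and -0.0034 with DESeq2 on all and on the compared groups. The labels give replicate numbers to different animals, and deviations of same-numbered libraries correlated at -0.12 to 0.16. The main fit used no pairing. Deviations from the means of groups of 2 to 4 libraries cannot decide whether same-numbered libraries shared a batch. Counts over all genes moved more. After TAC in HCN4F they were 2081 as reported and 1287 with edgeR on the compared groups, after TAC in WT 694 and, with DESeq2 on all groups, DESeq2 and edgeR on the compared groups and the replicate block, 1224, 1944, 2009 and 225. Between the Sham groups they were 72, and 41 with the replicate block to 418 with DESeq2 on the compared groups. Between the TAC groups they were 17, and 3 with edgeR on the compared groups to 228 with DESeq2 on all groups. In the interaction they were 0, and 40 with DESeq2 on all groups. With each library left out in turn they ran, in this order of comparisons, from 1329 to 2394, 11 to 544, 19 to 567, 6 to 454 and 0 to 78. With the replicate block Cacna1h between the TAC groups was 0.0022 and no count of members changed.

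With each library left out in turn, some differences that had not passed changed direction. After TAC in HCN4F these were Cacna1c (-0.0813 to 0.0802), Cacna1g (-0.25 to 0.0265) and Cacna1h (-0.35 to 0.0026). After TAC in WT they were Cacna1d (-0.32 to 0.29), Cacna1g (-0.0427 to 0.47), Cacna1h (-0.93 to 0.0318), Cacnb2 (-0.12 to 0.28), Cacnb3 (-0.0488 to 0.0403) and Cacna2d2 (-0.43 to 0.64). Between the Sham groups they were Cacna1c (-0.16 to 0.0038), Cacna1d (-0.22 to 0.0326), Cacnb1 (-0.16 to 0.0978), Cacnb3 (-0.0329 to 0.0857), Cacna2d1 (-0.13 to 0.0254) and Cacng6 (-0.18 to 0.84, the low value without HCN4F-Sham replicate 3). Between the TAC groups they were Cacna1d (-0.58 to 0.0296), Cacna1h (-0.54 to 0.42), Cacna2d2 (-0.45 to 0.62) and Cacng6 (-1.64 to 1.02). In the interaction they were Cacna1d (-0.46 to 0.15), Cacna1h (-0.26 to 0.70), Cacnb2 (-0.39 to 0.0235), Cacna2d2 (-0.94 to 0.13) and Cacng6 (-2.25 to 0.41). The cause was not tested. Leaving out a WT-TAC library leaves 1, which is then assumed to vary like the other groups.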
